A study of Homo sapiens with 6 samples.

Results

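The genes described here are mainly those of chromatin remodellers and of enzymes that add or remove methyl groups on histone lysines. Some encode other proteins, such as the DNA-binding transcription factor ARID3A. All were picked by symbol, under a rule set with earlier results of these data known. A gene was a member if its symbol began with SMARC, INO80, KMT2 or KMT5, with ARID, KDM or SETD and a digit, or was CHD with 1 digit, or if it was EP400, TRRAP or SRCAP. The rule gave 71 of 16571 gene symbols, from 92 of 21368 rows of RefSeq messenger RNA transcripts. EP400, the gene used to mark the group, was read at 359 to 486 CPM (counts scaled to the size of the library) in the 6 libraries.

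Messenger RNA was sequenced in A2780, an established human cell line that the labels call a serous ovarian cancer line. The 3 control libraries (pGIPZ-NC) came from cells infected with lentivirus carrying the control form of a short hairpin vector. The 3 knockdown libraries (shUSP39) came from A2780 cells infected in the same way with a hairpin against USP39, a ubiquitin-protease-like protein of the spliceosome. Per the study's methods, stable lines were made by puromycin selection, and the labels do not say which hairpin was used or whether the libraries of a group came from separate infections, so p-values measure the spread between these libraries, which the series calls biological triplicates.

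Remodellers use ATP to slide, evict or exchange nucleosomes, and most of them work as large complexes: BAF and PBAF, ISWI, the CHD family with NuRD, and the INO80, SRCAP and EP400 complexes. Histone lysine methyltransferases of the KMT and SETD families write marks at promoters, enhancers, gene bodies and silent chromatin, and KDM demethylases remove them. Subunits of BAF such as ARID1A and SMARCA4 are known for their frequent loss in some ovarian cancers.

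Total counts lay between 28294819 and 32939264 per library. A gene with at least 1 count was found for 12662 to 12809 symbols in the controls and 12819 in shUSP39 replicate 1, but for 15446 and 14890 in shUSP39 replicates 2 and 3, which stood apart in this measure. Counts are therefore also given below with shUSP39 replicate 1 as the lone knockdown library. Since USP39 was not analysed here, the targeted gene gave no check of the labels. Of the defining markers of epithelial ovarian carcinoma in the table, PAX8, EPCAM and SOX17 had at most 6 counts in any library and KRT7 at most 16, while KRT18 was at 20.8 to 23.9 CPM in pGIPZ-NC and 30.5 to 36.3 CPM in shUSP39. KRT8 had 26 to 37 counts in pGIPZ-NC and 0 to 3 in shUSP39, and MUC16 had 150 and 71 counts in shUSP39 replicates 2 and 3 and at most 6 elsewhere. The summed level of the 7 markers found ranged from 22.2 to 25.4 CPM in pGIPZ-NC and from 32.6 to 39.5 CPM in shUSP39. The 5 fibroblast markers summed to 1133 to 1197 and 454 to 474 CPM, nearly all of it COL1A2, with PDGFRA at no more than 6 counts. Leukocyte markers summed to 9.08 to 11.9 CPM, nearly all CD68, and endothelial markers to at most 2.03 CPM. The part of these marker differences in the results below was not tested.

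Members were lowered more often than raised after USP39 knockdown, but by small steps. Of the 71 members, 65 passed the filter on low counts, and by edgeR's quasi-likelihood test 14 were lower and 6 higher at a Benjamini-Hochberg adjusted p under 0.05, leaving 45 that did not pass. That is 21.5% lower and 9.23% higher. Over all 10695 genes tested, 17.5% were lower and 16.1% higher, so the share of lower members was near that of all genes in this fit. The median log2 fold change (shUSP39 over pGIPZ-NC) was -0.05 over the members and 0.01 over all genes tested. The comparison depended on scaling: with upper-quartile scaling 14 members were lower and 8 higher, beside 14.03% and 19.42% of all genes. In bulk RNA, fewer cells of a type and less RNA per cell cannot be told apart.

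No member moved beyond 2-fold. Among all genes 6.81% passed the test and this limit. The count was also 0 with the DESeq2 Wald test and with limma-voom, and 0 members beyond 2-fold had an unadjusted p under 0.05 in edgeR, although 26 members had such a p at any size, against 41.3% of all genes. The called members moved by a median of 0.32 on the absolute log2 scale, and all called genes by 0.39. Summed over all 71 members, the level was 7506, 7589 and 7561 CPM in pGIPZ-NC replicates 1, 2 and 3 and 7006, 7115 and 6933 CPM in shUSP39 replicates 1, 2 and 3. Every knockdown library lay under every control library. The means were 7552 ± 42.2 and 7018 ± 91.5 CPM (SD, n = 3 each). This sum is weighted to abundant members, among them called falls such as SRCAP and EP400, while the median log2 fold change of members was -0.05. It is therefore no separate result on the members as a whole.

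The libraries of the groups did not overlap in 19 members that were lower and 10 that were higher, against 22.5% and 21.7% of all genes tested. Of the 20 called members, 19 did not overlap, and the exception was KDM7A. With shUSP39 replicate 1 as the lone knockdown library, 12 members were lower and 3 higher, while 10.8% and 8.96% of all genes were, and all 20 called members kept their direction.

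**Figure D1:**
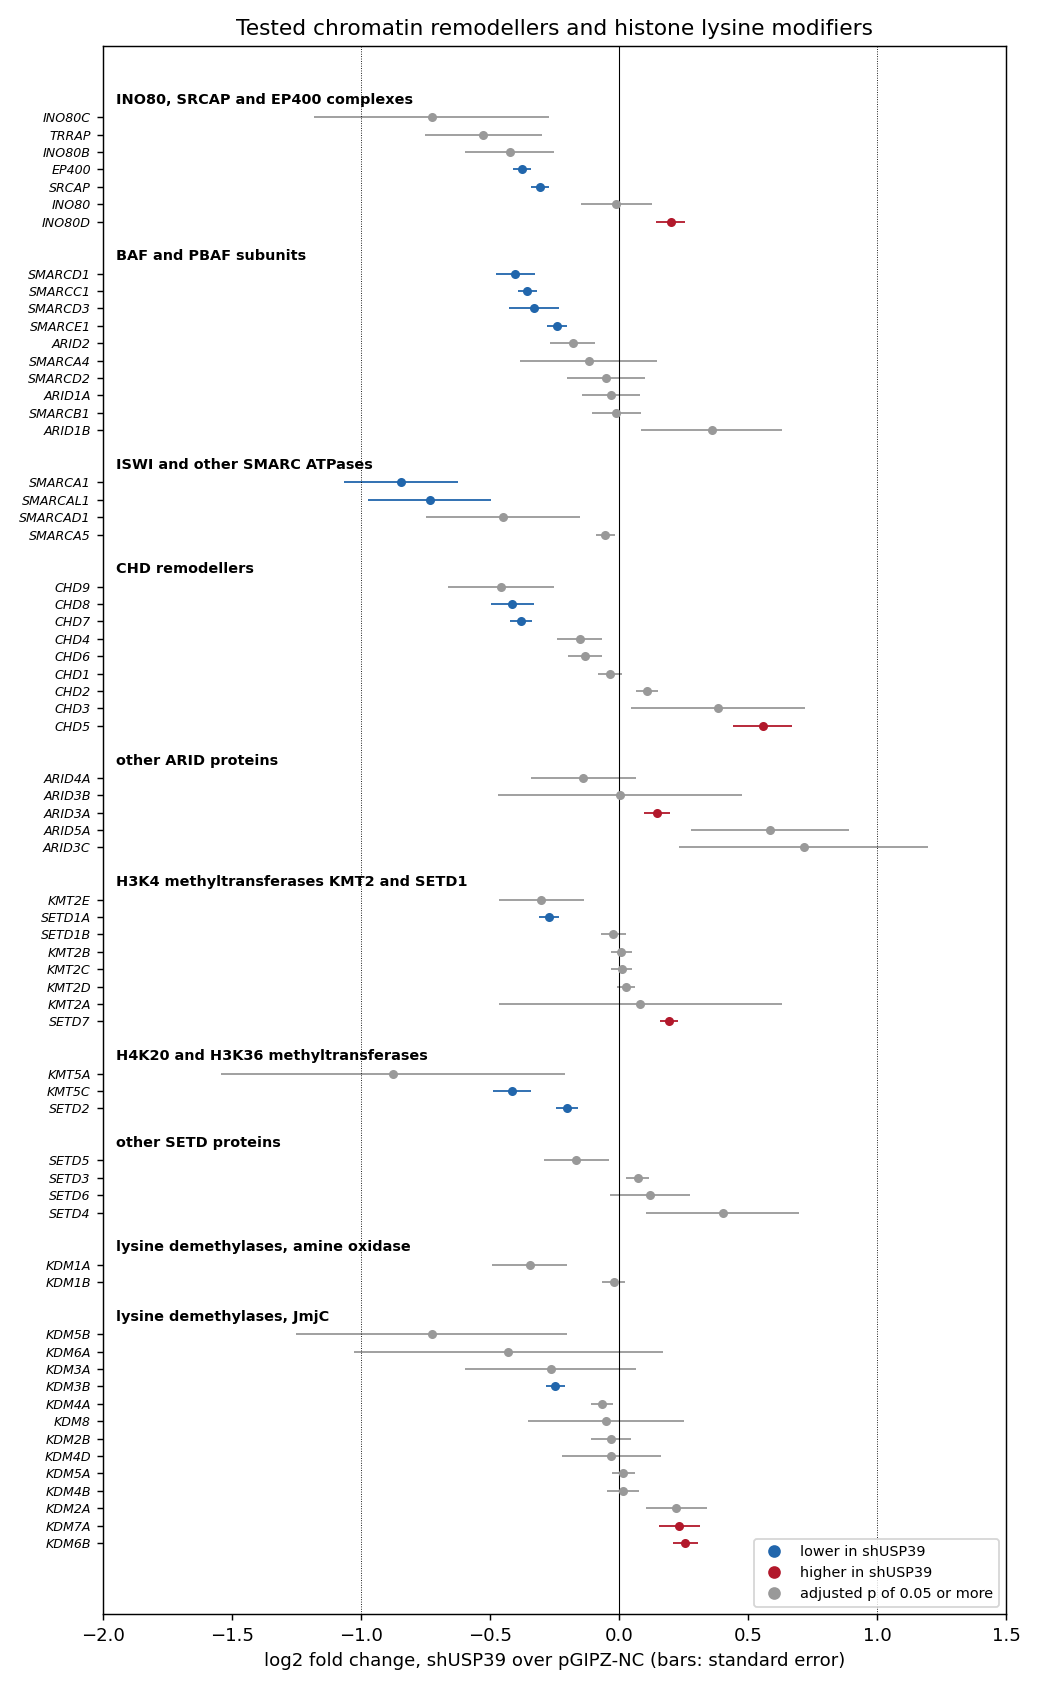
Log2 fold change of the 65 tested members (x axis, shUSP39 over pGIPZ-NC, with bars for the standard error), grouped by role, in blue where lower, red where higher and grey where the adjusted p was 0.05 or more. The 14 lower and 6 higher members all lie inside the dotted lines at 2-fold, and the widest bars belong to members with few counts.

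The INO80, SRCAP and EP400 complexes held the member with the smallest adjusted p. EP400, the ATPase of the human NuA4 complex, and SRCAP, the ATPase that exchanges a variant H2A histone into nucleosomes, both fell. EP400 (GRCh37 chr12:132434487-132565005, plus strand, 53 exons) was at 474, 484 and 486 CPM in pGIPZ-NC and 359, 376 and 376 CPM in shUSP39. SRCAP (chr16:30709530-30752730, plus strand, 34 exons) was at 716, 744 and 754 CPM against 582, 611 and 596 CPM. In both genes each knockdown library was well under each control. EP400 fell by 23.1% (log2 fold change -0.38 ± 0.03 (SE), edgeR adjusted p = 1.66e-09) and SRCAP by 19.2% (-0.31 ± 0.03, adjusted p = 3.20e-08).

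TRRAP, the large scaffold protein that EP400 shares with other acetyltransferase complexes, was read at a far lower level. It had 3.36, 3.29 and 3.29 CPM in pGIPZ-NC and 2.41, 2.29 and 2.20 CPM in shUSP39. The groups did not overlap and the log2 fold change was -0.53 ± 0.23, but the adjusted p was 0.0767 in edgeR. TRRAP has 72 exons, the most of any tested member, and 3 RefSeq transcripts. Of the INO80 complex, the ATPase INO80 was at 8.57 ± 0.839 and 8.503 ± 0.426 CPM (SD, n = 3 each), a log2 difference of -0.01 ± 0.14. Its subunit INO80D rose from 85.1, 81.5 and 86.1 CPM to 97.1, 101 and 91.6 CPM (0.20 ± 0.06, adjusted p = 0.00576), a call that was lost without shUSP39 replicate 2 (0.16, adjusted p = 0.0561). INO80B and INO80C had log2 differences of -0.43 and -0.73 that did not pass. In all, 2 of the 7 tested members of these complexes fell and 1 rose, against 17.5% and 16.1% of all tested genes. Their median log2 fold change of -0.38 was the value of EP400 itself. Of 19 other tested partners in the NuA4, SRCAP and INO80 complexes, which are not members, 2 were lower and 0 higher, with a median of -0.03.

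Promoter windows are shown for EP400 and SRCAP, the most abundant of the falling ATPase genes, and for KDM6B and SETD7, which rose, so that the letters around starts of genes that moved in opposite directions can be read side by side. Each window runs from 250 bases before to 50 bases after a RefSeq start on GRCh38.p14 and is written 5′ to 3′ on the strand of the gene. Capitals mark GC boxes (GGGCGG on either strand) and ETS cores (CCGGAA on either strand), which did not overlap each other here. The EP400 window is chr12:131949692-131949991 (plus strand), that of SRCAP chr16:30698921-30699220 (plus), that of KDM6B the upstream of its 2 RefSeq starts, chr17:7833967-7834266 (plus), and that of SETD7 chr4:139556170-139556469 (minus).
EP400: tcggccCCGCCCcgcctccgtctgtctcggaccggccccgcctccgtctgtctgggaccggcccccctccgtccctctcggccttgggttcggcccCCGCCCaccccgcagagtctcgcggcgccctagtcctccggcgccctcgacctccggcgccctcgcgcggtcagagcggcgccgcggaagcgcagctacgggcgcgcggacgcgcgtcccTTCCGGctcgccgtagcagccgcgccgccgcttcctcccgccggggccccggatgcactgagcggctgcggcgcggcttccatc
SRCAP: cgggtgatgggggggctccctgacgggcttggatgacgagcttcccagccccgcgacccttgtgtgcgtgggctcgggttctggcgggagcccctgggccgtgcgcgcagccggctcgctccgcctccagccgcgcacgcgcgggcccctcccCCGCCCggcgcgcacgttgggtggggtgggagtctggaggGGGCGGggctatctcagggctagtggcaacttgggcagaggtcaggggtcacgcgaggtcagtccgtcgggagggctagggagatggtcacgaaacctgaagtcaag
KDM6B: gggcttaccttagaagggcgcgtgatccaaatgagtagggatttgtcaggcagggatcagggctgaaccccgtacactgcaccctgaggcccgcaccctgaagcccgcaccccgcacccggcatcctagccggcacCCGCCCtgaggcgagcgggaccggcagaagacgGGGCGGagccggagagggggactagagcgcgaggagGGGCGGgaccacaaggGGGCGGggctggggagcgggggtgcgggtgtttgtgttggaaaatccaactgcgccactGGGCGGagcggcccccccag
SETD7: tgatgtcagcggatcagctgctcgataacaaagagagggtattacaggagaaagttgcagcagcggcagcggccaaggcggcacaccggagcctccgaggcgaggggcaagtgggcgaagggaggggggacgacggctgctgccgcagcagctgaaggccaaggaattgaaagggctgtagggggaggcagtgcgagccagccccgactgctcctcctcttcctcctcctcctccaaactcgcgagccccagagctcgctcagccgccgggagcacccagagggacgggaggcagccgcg

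EP400 held 2 GC boxes and 1 ETS core in 79.0% GC, SRCAP held 2 GC boxes, KDM6B 5, and SETD7 neither motif. A RefSeq window was found for 61 of the 71 members. The GC box was in 83.6% of them, in 10 of the 12 lower members with a window and in 2 of the 4 higher ones, against 77.2% of 8318 tested genes and 48.3% of all 27305 genes in the table of windows. The ETS core was in 31.1% of members and 34.6% of tested genes, and the CCAAT box (CCAAT) in 37.7% and 42.8%. TATAAA was in 3.28% of members against 7.96% of tested genes, the E-box CACGTG in 9.84% against 12.6%, and the interferon-stimulated response element in 4.92% against 3.87%. Both strands were searched. A match is only a run of letters. The shares of members include members that were not tested. They were close to those of tested genes apart from TATAAA, which 2 members held, ARID5B and SMARCA2, neither of them tested.

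Among BAF and PBAF subunits, 4 of 10 tested members fell and none rose, beside 17.5% lower and 16.1% higher over all tested genes, with a median log2 fold change of -0.15. Of 12 other tested BAF and PBAF subunits, which are not members, 1 was lower and 1 higher, with a median of 0.02. The higher one was ACTL6A, whose limits are given below. SMARCC1, the core scaffold of the complex, was at 383, 359 and 370 CPM in pGIPZ-NC and 293, 294 and 281 CPM in shUSP39, with no overlap (-0.36 ± 0.04, adjusted p = 1.85e-08 in edgeR). SMARCD1 was at 37.1, 37.4 and 36.2 CPM against 28.3, 28.1 and 27.3 CPM (-0.40 ± 0.08, adjusted p = 0.000112). SMARCD1, SMARCD2 and SMARCD3 are alternative forms of 1 accessory subunit, and SMARCD2 was at 35.8 ± 2.87 and 34.6 ± 8.06 CPM (-0.05, adjusted p = 0.84). SMARCD3 was at 23.1, 23.7 and 22.7 CPM against 18.8, 16.0 and 20.5 CPM (-0.33 ± 0.10, adjusted p = 0.00992), a call that was lost without shUSP39 replicate 2 (-0.24, adjusted p = 0.0896). SMARCE1, an HMG-box subunit named here after its values were seen, fell from 352 ± 11.8 to 298 ± 11.6 CPM (-0.24, adjusted p = 1.74e-05).

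The catalytic and DNA-binding subunits of BAF that are often lost in cancer did not pass the test. SMARCA4, an ATPase of BAF, was at 2.35 ± 0.416 and 2.16 ± 0.387 CPM (log2 difference -0.12 ± 0.27). Its paralog SMARCA2 had 2, 1 and 0 counts in the controls and 0 in each knockdown library, all at or under the limit of 3 counts that a count of 0 allows, so it gave no fold. ARID1A was at 18.8 ± 3.03 and 18.3 ± 1.86 CPM (-0.03 ± 0.11). Its alternative ARID1B was at 2.32, 2.25 and 2.09 CPM in pGIPZ-NC and 1.69, 3.59 and 3.28 CPM in shUSP39, where replicate 1 lay under and replicates 2 and 3 above all controls. ARID2, of PBAF, was at 35.7 ± 4.41 and 31.5 ± 2.05 CPM (adjusted p = 0.12). SMARCB1, a core subunit, was level as a gene (21.6 ± 0.331 and 21.4 ± 2.19 CPM) and differed in its transcripts, as described below.

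Of the other SMARC ATPases, SMARCA1 and SMARCAL1 had the largest falls of any called members, at low levels. SMARCA1, an ISWI ATPase that spaces nucleosomes, was at 4.49, 4.25 and 3.47 CPM in pGIPZ-NC and 2.37, 2.32 and 2.10 CPM in shUSP39. It fell by 44.4% (-0.85 ± 0.22, adjusted p = 0.00349 in edgeR), with no overlap, though SMARCA1 did not keep this call in all 16 alternatives. Its paralog SMARCA5, the most abundant member per length at 82.3 ± 3.91 CPM per kb, was at 664, 629 and 604 CPM against 632, 603 and 593 CPM, with overlap (-0.05 ± 0.04, adjusted p = 0.287). The difference between the paralogs was not tested. SMARCAL1, which reanneals DNA at stalled replication forks, was at 4.20, 3.39 and 3.15 CPM against 2.56, 2.06 and 1.83 CPM (-0.73 ± 0.24, adjusted p = 0.0173). The SMARCAL1 call was lost without pGIPZ-NC replicate 1 and without shUSP39 replicate 2 or 3, with adjusted p-values of 0.0988, 0.0518 and 0.0722. It was also lost with the highest transcript of each gene (-0.64, adjusted p = 0.0514 in edgeR).

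In the CHD family, 2 of 9 tested members fell and 1 rose, near the 17.5% and 16.1% of all tested genes. CHD7 and CHD8, related remodellers, both fell. CHD7 was at 235, 228 and 233 CPM in pGIPZ-NC and 187, 180 and 168 CPM in shUSP39 (-0.38 ± 0.04, adjusted p = 7.59e-08 in edgeR), and CHD8 at 39.4, 36.6 and 37.9 CPM against 27.7, 32.0 and 25.8 CPM (-0.41 ± 0.08, adjusted p = 0.000272). The groups did not overlap in either. CHD5, a NuRD-type remodeller best known from neural tissue, had the largest rise of any called member. It was at 13.4, 11.5 and 11.4 CPM against 17.3, 16.0 and 19.98 CPM, without overlap, a rise of 47.0% (0.56 ± 0.11, adjusted p = 0.000341).

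CHD4 and CHD3, the main ATPases of NuRD, did not pass. CHD4 was at 28.2 ± 2.52 and 25.3 ± 1.10 CPM. CHD3 was at 8.37, 8.005 and 9.71 CPM in pGIPZ-NC and 5.66, 14.1 and 14.3 CPM in shUSP39, so that replicate 1 lay under and replicates 2 and 3 above every control. The log2 fold change of CHD3 was 0.38 ± 0.34 with all libraries, 0.70 (adjusted p = 0.000144 in edgeR) without shUSP39 replicate 1 and -0.62 (adjusted p = 0.0427) with that library alone. In CHD3 and ARID1B, shUSP39 replicate 1 thus lay apart from replicates 2 and 3, as it did in the number of genes with a count. SMARCD2 had the same order, at 33.3, 35.2 and 38.9 CPM in pGIPZ-NC and 25.3, 39.0 and 39.5 CPM in shUSP39. So did SMARCB1 as a gene, at 21.7, 21.9 and 21.2 CPM against 18.9, 22.6 and 22.8 CPM. These genes were set together after their values were seen, and the share of all tested genes with that order is not given here. The part of the split in the number of genes with a count in their values was not tested. CHD2 was higher in every knockdown library (173 ± 1.69 and 186 ± 5.67 CPM) with an adjusted p of 0.0512.

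Among the methyltransferases of H3K4, the mark of promoters and enhancers, the KMT2 genes did not pass the test. KMT2D, the most abundant of the 71 members in CPM, was at 818, 880 and 898 CPM in pGIPZ-NC and 865, 900 and 877 CPM in shUSP39 (log2 difference 0.02 ± 0.03). KMT2C, its paralog, was at 198 ± 2.98 and 199 ± 6.99 CPM (0.01 ± 0.04), and KMT2B at 331 ± 19.3 and 333 ± 9.18 CPM (0.01 ± 0.04). These standard errors are close to that of EP400. KMT2A, the paralog of KMT2B, was read at only 10 to 21 counts per library, and its log2 difference of 0.08 had a standard error of 0.55. SETD1A, an H3K4 methyltransferase that was named here after its values were seen, fell from 319 ± 10.7 to 264 ± 6.20 CPM (-0.27, adjusted p = 2.40e-06), while SETD1B was at 136 ± 5.60 and 134 ± 4.30 CPM. SETD7, a monomethyltransferase of H3K4 and of other proteins, rose from 322, 325 and 307 CPM to 370, 363 and 358 CPM, without overlap (0.19 ± 0.04, adjusted p = 0.000131).

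Writers of H4K20 and H3K36 methylation, marks of silent chromatin and of transcribed gene bodies, gave 2 falls among 3 tested members, with 17.5% of all tested genes lower. KMT5C, an H4K20 methyltransferase, was at 40.7, 40.9 and 43.6 CPM in pGIPZ-NC and 31.7, 32.2 and 29.9 CPM in shUSP39, without overlap (-0.42 ± 0.07, adjusted p = 6.29e-05 in edgeR). SETD2, which trimethylates H3K36, was named after its values were seen and fell from 212 ± 4.36 to 185 ± 6.37 CPM (-0.20, adjusted p = 0.000363 in edgeR). It did not keep this call in all 16 alternatives. KMT5A had the largest log2 difference of the tested members, -0.88 ± 0.67, at 2 to 15 counts per library, and did not pass. None of the 4 other SETD genes passed, and their log2 differences ran from -0.17 to 0.40.

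Of the JmjC demethylases, 1 of 13 tested members fell and 2 rose, where 17.5% and 16.1% of all tested genes did. KDM6B, which removes methyl groups from H3K27, the Polycomb mark, was at 117, 123 and 120 CPM in pGIPZ-NC and 141, 140 and 149 CPM in shUSP39, without overlap (0.26 ± 0.05, adjusted p = 9.99e-05 in edgeR). Its X-linked paralog KDM6A was at 8 to 27 counts in the controls and 8 to 20 in the knockdown, too few to place it. KDM7A, a demethylase of H3K9 and H3K27, was at 45.9, 36.6 and 40.3 CPM against 49.0, 49.99 and 45.3 CPM (0.23 ± 0.08, adjusted p = 0.0221). Its groups overlapped, and the call was lost without pGIPZ-NC replicate 2 or 3 or shUSP39 replicate 1 or 2, with adjusted p-values from 0.0571 to 0.189. KDM3B, an H3K9 demethylase named after its values were seen, fell from 362 ± 9.13 to 305 ± 8.48 CPM (-0.25, adjusted p = 5.09e-06). The amine oxidase KDM1A was lower in every knockdown library (9.83 ± 0.464 and 7.72 ± 1.30 CPM) with an adjusted p of 0.0669, and KDM1B was at 143 ± 2.10 and 141 ± 2.85 CPM.

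Among the ARID genes outside BAF, 1 of 5 tested members rose, near the 16.1% of all tested genes. ARID3A, a DNA-binding transcription factor, was at 97.4, 103 and 98.8 CPM in pGIPZ-NC and 108, 111 and 112 CPM in shUSP39 (0.15 ± 0.05, adjusted p = 0.0245). The groups did not overlap, but the call was lost without pGIPZ-NC replicate 1 or 3 or shUSP39 replicate 2 or 3, with adjusted p-values from 0.0747 to 0.0801. ARID5A and ARID3C were higher in every knockdown library at under 3 CPM and did not pass.

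The 6 members that did not pass the filter were ARID4B, ARID5B, KDM4C, KDM4E, KMT5B and SMARCA2, each with at most 18 counts in any library. ARID5B had 0, 1 and 0 counts in pGIPZ-NC and 6, 2 and 6 in shUSP39. KDM4E had 0 in the controls and 0, 5 and 2 in the knockdown. In the fit without a filter the adjusted p of these 6 genes ran from 0.171 (KDM4E) to 0.665 (KDM4C) in edgeR, with 0.198 for ARID5B, whose groups did not overlap.

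**Figure D2:**
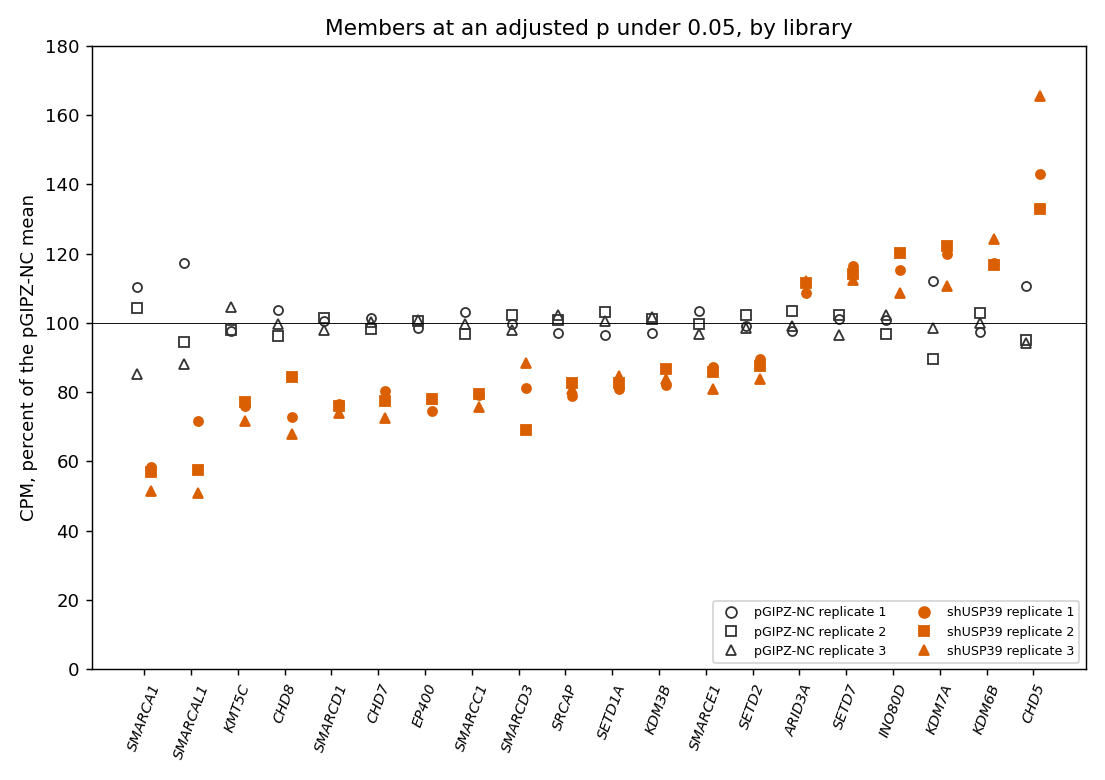
CPM of the 20 called members in each library (y axis, as percent of the pGIPZ-NC mean), with open grey marks for pGIPZ-NC and filled orange marks for shUSP39, circles, squares and triangles standing for replicates 1, 2 and 3. The orange marks of the 14 members on the left lie below all grey marks of the gene, and of the 6 on the right KDM7A alone has marks that overlap.

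Levels of the members per length spanned 0.0303 to 82.3 CPM per kb of the longest coding transcript in pGIPZ-NC, with a median of 4.44 over the tested members and 3.22 over all tested genes with a length. The measured level went with the number of RefSeq transcripts of a gene. Members with 1 transcript had a median of 16.8 CPM per kb (n = 21), those with 2 or 3 a median of 4.15 (n = 27) and those with 4 or more a median of 0.428 (n = 17). Over all tested genes the medians were 16.3, 2.19 and 0.998 CPM per kb, in 3975, 3369 and 2777 genes, so the members followed a trend of the whole table. SMARCA4, KDM6A, KMT2A and KMT5A, which were read at low levels, all have 3 or more RefSeq transcripts, and whether reads shared between transcripts were left out of their counts was not tested.

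Of the members with 1 transcript 6 were lower and 4 higher, beside 24.9% and 23.1% of all tested genes of that class. Of those with 2 or 3 transcripts 7 were lower and 2 higher, beside 14.6% and 12.3%, and of those with 4 or more 1 and 0, beside 11.0% and 11.1%. Calls also went with the count behind a gene, in the members and in all genes. Of the 40 members with at least 10 CPM on average 12 were lower and 6 higher, against 27.5% and 20.1% of the 5503 genes at that level. Of the 25 under 10 CPM 2 were lower and 0 higher, by edgeR's quasi-likelihood test, against 6.88% and 11.9% of genes.

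**Figure D3:**
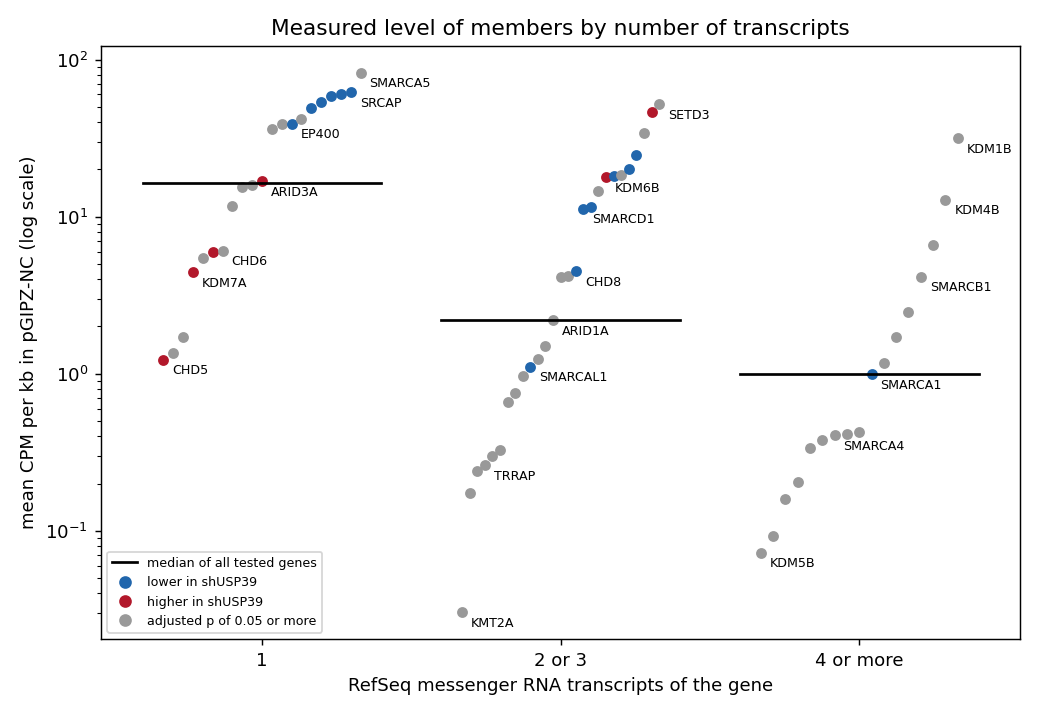
Mean CPM per kb in pGIPZ-NC (y axis, log scale) of each tested member, by the number of RefSeq messenger RNA transcripts of its gene, in blue where lower, red where higher and grey where the test was not passed. Horizontal lines are the medians of all tested genes, at 16.3, 2.19 and 0.998, and points within a class are spread sideways by rank, with some members labelled.

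Members were long genes with many exons. The tested members had a median of 23 exons (range 3 to 72), against 9 over all tested genes, and a median transcript length of 6451 bases against 3513. Across the 65 members Spearman's rho between exon number and log2 fold change was -0.10, and across all tested genes -0.12; genes share libraries and are not independent. Of 39 members with more than 20 exons 8 were lower and 2 higher, with a median log2 fold change of -0.13. All 1339 tested genes of that kind had a median of -0.07, and 26.0% of them were lower and 10.6% higher. Of the 26 members with 20 exons or fewer 6 were lower and 4 higher, beside 16.4% and 17.0% of the 8865 tested genes of that kind.

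Transcripts of members were also examined one by one, since the table is per transcript. Of 78 member transcripts tested, 14 were lower and 8 higher, against 29.3% of all 12553 transcripts in either direction, and 1 moved beyond 2-fold. Usage of transcripts within a gene could be tested for 13 members with edgeR's diffSpliceDGE, and 1 of them, SMARCB1, passed (adjusted p = 0.00343), against 3.69% of 1628 genes. The minor transcript NM_001317946.1 was at 1.67, 1.503 and 1.56 CPM in pGIPZ-NC and 4.47, 3.73 and 2.57 CPM in shUSP39, a rise without overlap (1.19 ± 0.26, adjusted p = 0.000776). The major transcript NM_003073.4 was at 20.1, 20.3 and 19.7 CPM against 14.5, 18.9 and 20.2 CPM, with overlap (adjusted p = 0.293).

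The share of the minor transcript in SMARCB1 counts was thus 7.67%, 6.90% and 7.35% in the controls and 23.6%, 16.5% and 11.3% in the knockdown libraries. All knockdown libraries were higher and their spread was wide. Without shUSP39 replicate 1, the library with the largest share, the adjusted p of the usage test was 0.0702. The 12 other members tested for usage, among them SMARCA4, CHD8, CHD9, SETD7 and SMARCD3, had adjusted p-values of 0.523 or more.

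**Figure D4:**
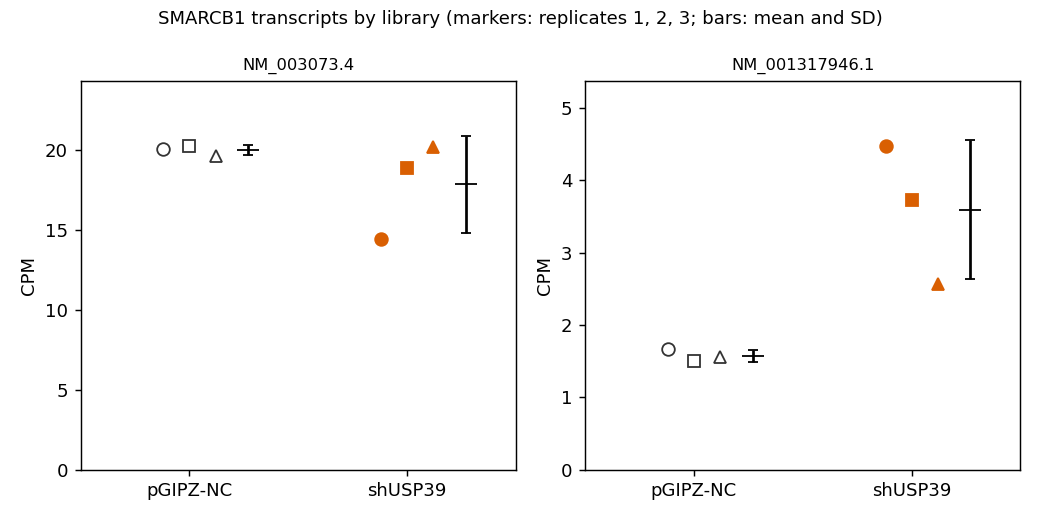
CPM of the 2 SMARCB1 transcripts by library (y axes from 0, with different ranges), with open marks for pGIPZ-NC, filled marks for shUSP39 and bars for the mean and SD of 3 libraries. The minor transcript on the right lies at 1.503 to 1.67 CPM in the controls and at 2.57 to 4.47 CPM in the knockdown.

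The other genes of the same complexes and enzyme classes were taken from a list of 116, of which 100 were in the table and 95 tested. In edgeR 17 were lower and 2 higher, or 17 and 2 of 95 beside 17.5% and 16.1% of all genes, and the median log2 fold change was -0.06. NuRD had 4 falls among 11 tested subunits. MTA1, a NuRD subunit linked to metastasis, was at 44.9, 49.2 and 52.3 CPM in pGIPZ-NC and 35.0, 35.7 and 39.2 CPM in shUSP39, without overlap (-0.41 ± 0.08, adjusted p = 8.35e-05). The methyl-CpG-binding MBD2 (-0.37), the histone-binding RBBP7 (-0.29) and the scaffold GATAD2B (-0.23) were the other 3, named after their values were seen. The remaining falls were spread over partners of BAF, ISWI, EP400 and COMPASS, acetyltransferases, methyltransferases and JmjC proteins.

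BAZ2B, a bromodomain partner of ISWI, had the largest fall of this list at 2.38, 1.26 and 2.59 CPM against 1.28, 0.849 and 1.12 CPM, with overlap (-0.93 ± 0.34, adjusted p = 0.0349). The BAZ2B call was lost with limma-voom (adjusted p = 0.0659) and without pGIPZ-NC replicate 1 or 3 or shUSP39 replicate 2 or 3, with adjusted p-values from 0.0674 to 0.152 and log2 fold changes from -0.95 to -0.75. JMJD6, a JmjC hydroxylase, rose from 31.6, 32.0 and 33.3 CPM to 38.9, 37.2 and 38.1 CPM (0.24 ± 0.07, adjusted p = 0.0123), a call that was lost with the highest transcript of each gene (0.20, adjusted p = 0.104). The other gene called higher, named after its values were seen, was ACTL6A, the actin-like subunit that BAF shares with INO80 and NuA4, at 4, 2 and 2 counts in pGIPZ-NC and 13, 14 and 24 counts in shUSP39 (adjusted p = 0.00605). It was the only gene of the list called beyond 2-fold, but it passed the filter on low counts only through the group where it was high, so the call is no support for a rise, and it had no value with at least 10 counts in every library. The call was also lost without shUSP39 replicate 3 (adjusted p = 0.0719).

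**Figure D5:**
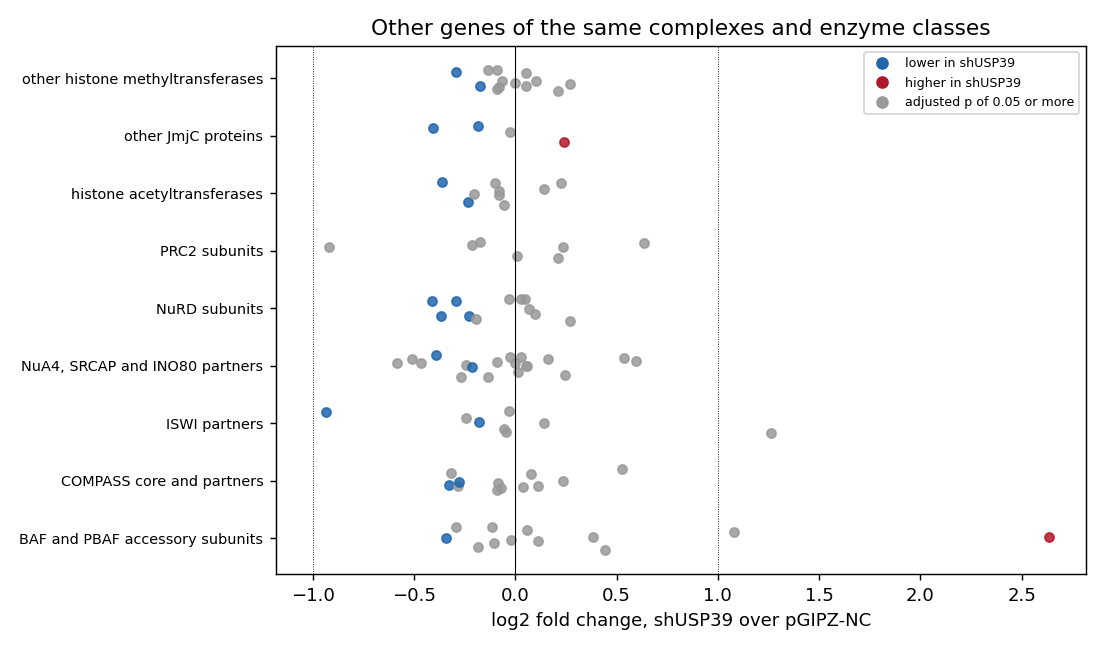
Log2 fold change (x axis, shUSP39 over pGIPZ-NC) of the 95 tested genes of the same complexes and enzyme classes that are not members, 1 row per class, in blue where lower, red where higher and grey where the test was not passed. The 17 lower genes lie between -0.93 and -0.17, and the red point farthest to the right is ACTL6A, which passed the filter on low counts only through the knockdown libraries.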

How the data were processed

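RNA-seq libraries of 3 pGIPZ-NC and 3 shUSP39 samples were grouped by their labels. The authors deposited 1 table of raw counts of reads for each RefSeq messenger RNA transcript and library. Per the labels, the submitters' processing notes name HISAT2, Cufflinks and hg19, without versions. The counter, annotation and use of strand are not given in the sources used here. Reads shared between transcripts may be left out of these counts, and overlapping genes or near-identical copies are uncertain. The table's columns of group means, fold, p-value and q-value hold the authors' own comparison and were not used.

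Counts were summed per gene symbol, of which 46 in date form were replaced and 1 was left. After filterByExpr and TMM scaling, genes were tested with edgeR 4.0.16 (robust quasi-likelihood, group as the only term, Benjamini-Hochberg adjustment over all genes tested) in R 4.3.3, and transcript usage with diffSpliceDGE. The fits were tested on simulated data first. The standard error is that of the log2 fold change. CPM are counts scaled to a common library total after TMM. Fold and percent change come from the fitted log2 fold change. Exons, lengths and coordinates came from GENCODE release 44 on GRCh37, and promoter windows from RefSeq. No sample was found to be a copy of another.

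Depth ran from 28294819 to 32939264 counts per library, so intervals of counting error are narrow for members at many CPM and wide under 1 CPM. Members and lists were chosen with earlier results of these data known. Named were EP400, TRRAP and SRCAP, up to 10 members with the largest rise and 10 with the largest fall among called members of 1 CPM or more in the higher group, preset paralog pairs, members called for usage, and up to 2 rises and 2 falls of other chromatin genes. Called members and called other chromatin genes named otherwise are marked. Members outside this rule that did not pass or were not tested, such as CHD2, KDM1A and ARID5B, are named without a mark. Alternatives were DESeq2 1.42.0 size factors and Wald test, scaling by upper quartiles or by library size only, the fit without a filter or with a minimum of 10 counts per library, limma-voom (limma 3.58.1), the replicate number as a block, the highest transcript of each gene, each library left out, shUSP39 replicate 1 only, the Simes test for usage and mean transcript length.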

Additional observations from a re-analysis of the deposited data

How the results depend on the processing

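Of the 20 called members, 13 kept their direction and their adjusted p under 0.05 in all 16 alternatives; the exceptions were SMARCA1, SMARCAL1, SMARCD3, SETD2, INO80D, KDM7A and ARID3A. With each library left out, 3 to 6 members were higher and 12 to 16 lower, the members' median log2 fold change ran from -0.16 to -0.057, the other chromatin genes had 2 to 3 rises and 13 to 18 falls, and 0 to 1 members were called for usage. The lowest counts, 3 and 12, came without shUSP39 replicate 2, and usage was lost without shUSP39 replicate 1. The shares of all genes called with each library left out are not given here, so these counts have no background beside them. With shUSP39 replicate 1 only, which is assumed to vary like the controls, 3 members were higher, the median was -0.17, and the other chromatin genes had 0 rises and 9 falls. Their 2 rises became 6 with upper-quartile scaling, 4 with library size only, 4 with the replicate block, and 1 with at least 10 counts in every library or the highest transcript. The cause was not tested. Upper-quartile scaling moved the rises from 48.0% to 58.0% of calls over all genes. It called 8 members higher and 14 lower, beside 19.42% and 14.03% of all genes in that fit. The members' median level was 7.63 CPM per kb with mean transcript length. Leaving the filter out moved the median of all genes to 0.12.

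Genes that did not pass changed sign as follows. ARID1A was at 0.012 and SMARCB1 at 0.033 with upper-quartile scaling, SMARCB1 at 0.015 with library size only, and SMARCA4 at 0.13 with the highest transcript. With shUSP39 replicate 1 only, SMARCA4 was at 0.13, ARID1A 0.092, ARID1B -0.40, KMT2A -0.0099, KMT2B -0.017, KMT2C -0.0062, KMT2D -0.0015 and CHD3 -0.62. With each library left out, the ranges were -0.16 to 0.045 for ARID1A, -0.26 to 0.017 for SMARCA4, -0.057 to 0.069 for SMARCB1, -0.17 to 0.45 for KMT2A, -0.042 to 0.029 for KMT2B, -0.020 to 0.030 for KMT2C and -0.016 to 0.046 for KMT2D.

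Same-numbered libraries deviated together by correlations of 0.0165 to 0.0968, and 3 of 6 libraries correlated best with their own number, so the numbers were not taken as pairs. With the replicate block 7 members were higher and 15 lower, and the shares of all genes in that fit are not given here. Depth limits the members under 1 CPM.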
